A study of Rattus norvegicus with 20 samples.

Results

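The comparison described here set the arcuate nucleus of rats with spasms that were given PMX53 (BYP) against that of rats with spasms that were given saline (BYS). The members are the 4 BYP and the 4 BYS samples of the 20 in the series, and the 13285 genes that had at least 3 values in each group. All 8 animals were male Sprague-Dawley pups, taken on postnatal day 15, whose mothers had received 2 injections of betamethasone (0.4 mg/kg each), a synthetic glucocorticoid, on gestational day 15. All 8 also had infantile spasms, triggered by repeated injections of N-methyl-D-aspartic acid (NMDA), an agonist of a glutamate receptor, so the priming and the spasms are common to both groups and the labelled difference is the treatment. Levels are also shown, where they help, for BYA rats (betamethasone, spasms, ACTH), BNS rats (betamethasone, no spasms, saline) and SNS rats (prenatal saline, no spasms, saline), 4 of each. The labels and the study's methods differ on the first day of treatment, and neither says which pups were littermates, so the p-values measure only the spread between these samples.

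PMX53 is a cyclic peptide that blocks C5ar1, the receptor for the complement fragment C5a. C5a is cut from complement component C5 when the complement cascade runs to its later steps, and C5ar1 is known mainly from myeloid cells, which in brain are the microglia, where it promotes the release of cytokines and the movement of cells. Neurons that make the feeding peptides Agrp, Npy and Pomc define the arcuate nucleus, a small region of the ventral hypothalamus. The spots for these 3 genes ranked at the 98.4, 99.4 and 97.3 percentile of brightness among the genes tested, so the markers that define the labelled tissue were present in the samples.

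Each BYP and BYS array held 2 samples of the same group, 1 in Cy3 and 1 in Cy5. Replicates 1 and 3 were Cy3 and replicates 2 and 4 were Cy5, with replicates 1 and 2 on 1 array and 3 and 4 on another. The BYP samples lay on 1 slide and the BYS samples on another slide, so slide and treatment cannot be told apart. Values were present at 35095 to 44249 spots in BYP samples and at 39141 to 44215 spots in BYS samples. Levels below are log2 intensities with the sample's median gene set to 0, and a difference is BYP minus BYS on that log2 scale with the SE of the limma fit (n = 4 samples in each group).

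The BYS arrays carried a pattern by position that the BYP arrays did not. When the array was divided into 95 blocks and each spot was set against its mean over all samples, the block medians lay between -0.27 and 0.43 in the 4 BYP samples and between -0.73 and 0.75 in the 4 BYS samples. The local shift of a gene is defined here as the mean BYP minus BYS deviation around its own spots, smoothed over the array. The smoothing took in the gene's own spots and ran apart in 3 classes of spot brightness, each centred on its median. The local shift was 0.02 in the median over all genes and ran to -0.52 at the low end and 0.88 at the high end. It is given beside the results because the called genes moved with it. The map of block medians shows this pattern.

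**Figure D1:**
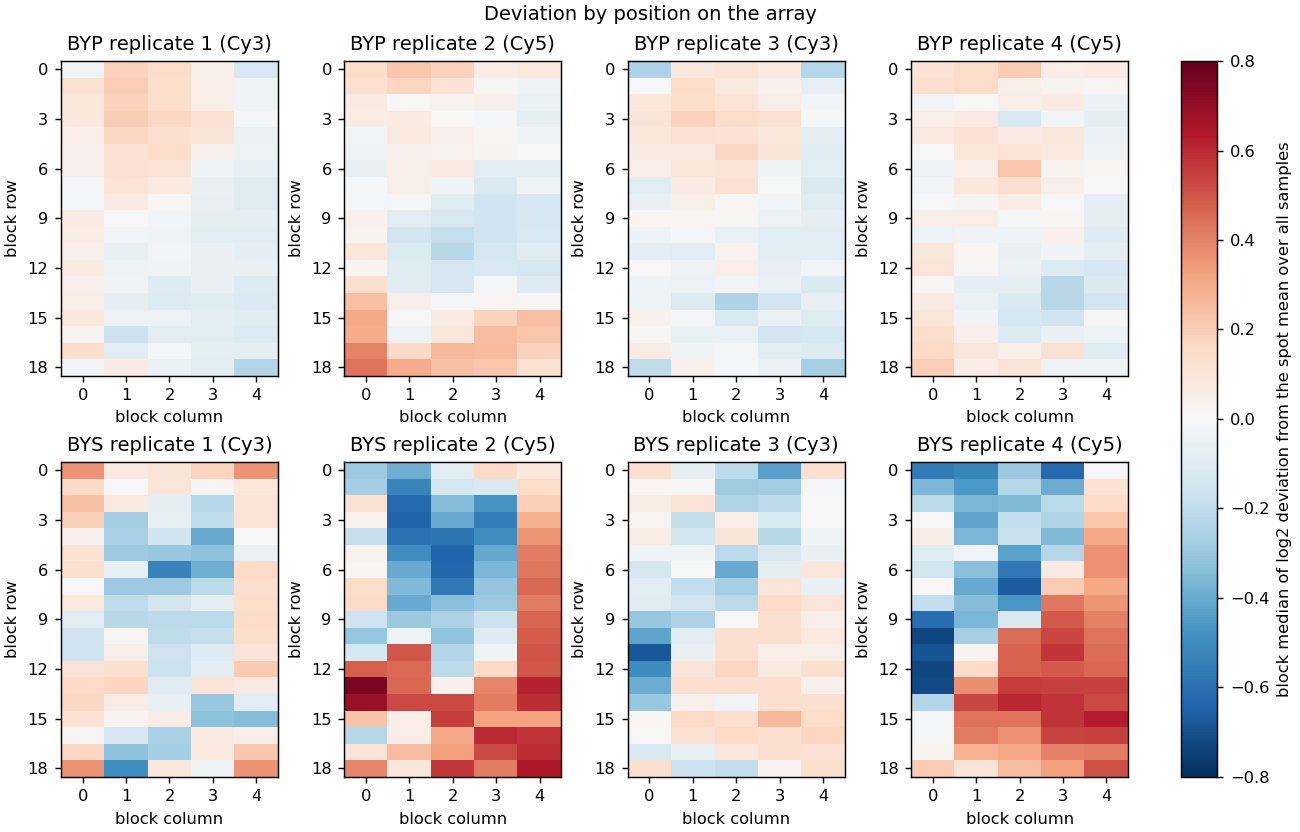
Block medians of the log2 deviation from each spot's mean over all 20 samples (colour, -0.8 to 0.8), by row and column of blocks on the array, for BYP replicates 1 to 4 (top) and BYS replicates 1 to 4 (bottom). The BYP blocks stay between -0.27 and 0.43, and the BYS blocks reach -0.73 and 0.75 in patches, with the widest ranges in the Cy5 samples, replicates 2 and 4.

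In all, limma called 1289 of 13285 genes changed after PMX53 (9.70% at an adjusted p under 0.05), of which 712 were higher in BYP (5.36%) and 577 lower (4.34%). The called increases were between 0.40 and 2.82 and the called decreases between -1.75 and -0.41, and the median difference over all genes was -0.15. Of the called genes, 840 had groups that did not overlap in all 8 values, against 1578 of 12925 genes with 8 values in all (12.2%). The split depended on the scaling, with 532 higher and 895 lower when samples were centred on the 75th percentile and 516 and 706 with no centring. Taking the slide as a random block left 139 genes, 138 of them higher in BYP, so nearly every decrease was lost in that fit. Only SNS lay on more than a single slide, so that fit could not estimate or remove a slide effect between BYP and BYS.

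The direction of a call followed the position of its spots and their brightness. Of the 712 increases, 710 lay where the local shift was above 0, and of the 577 decreases, 562 lay where it was below 0, while 53.1% of all genes lay above 0. The 10% of genes with the highest local shift (0.43 to 0.88) held 472 increases and 0 decreases, and the 10% with the lowest (-0.52 to -0.31) held 1 increase and 237 decreases. By brightness, the 3 dimmest groups of 10% of the genes held 0 increases and 65, 98 and 126 decreases, and the brightest 10% held 150 increases and 4 decreases. The median difference was -0.60 in the dimmest 10% and 0.06 in the brightest. The dim end of the samples also differed, taken as the 10th percentile of spots relative to the sample's median spot. In Cy3 it was -2.49 and -2.06 in BYP, against -1.58 and -1.72 in BYS. In Cy5 it was -3.43 and -3.55 in BYP, against -3.07 and -3.27 in BYS. Whether this accounts for the decreases of dim genes was not tested.

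**Figure D2:**
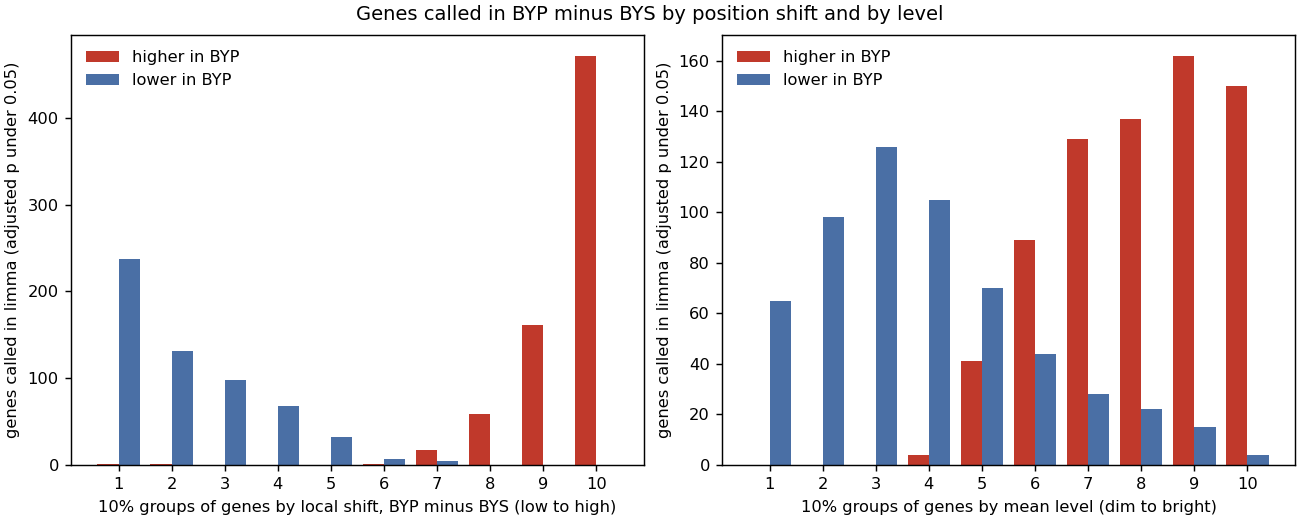
Number of genes called higher (red) and lower (blue) in BYP than in BYS in each of 10 equal groups of genes, ordered by local shift (left) or by mean level over all samples (right). Increases gather in the groups of high local shift, with 472 in the highest, and decreases in those of low shift and low level, with 237 in the lowest group of shift.

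When the local trend was subtracted within 3 classes of spot brightness, a step chosen after seeing the data, 259 genes passed (1.95%), 166 higher (1.25%) and 93 lower (0.700%). Of these, 159 increases and 32 decreases were also called without the step. The difference after this step, called the detrended difference below, is given beside most calls of single genes, and for groups of genes the number that still passed is given. Those numbers are to be read against the 1.95% of all genes that passed after the step.

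The 3 largest increases by the rule for named genes were those of Bcat1, Tusc3 and Slc25a4. Bcat1, the cytosolic enzyme that starts the breakdown of branched-chain amino acids, had levels of 6.24, 6.38, 6.11 and 6.66 in BYP replicates 1 to 4, against 3.75, 4.17, 4.43 and 5.04 in BYS. The groups were more than 1 unit apart, and the difference was 2.00 ± 0.34 (limma adjusted p = 0.00133; detrended 1.43 ± 0.25, adjusted p = 0.00762). Tusc3, a subunit of the oligosaccharyltransferase that adds sugar chains to new proteins, had levels of 4.05, 4.38, 3.88 and 4.38 in BYP, against 2.01, 2.37, 1.97 and 2.39 in BYS, a difference of 1.98 ± 0.33 (detrended 1.43). Slc25a4, which exchanges ADP for ATP across the inner mitochondrial membrane, had 5.72, 5.76, 5.52 and 5.91 in BYP, against 3.44, 3.73, 3.61 and 4.25 in BYS, a difference of 1.97 ± 0.21 (detrended 1.39). For all 3 genes the lowest BYP sample stood above the highest BYS sample.

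The other 9 genes among the 12 largest increases were Ap3d1, a subunit of a vesicle coat adaptor (1.87), Ctsl, a lysosomal protease (1.84), Cox7c of cytochrome c oxidase (1.74), Fam120b (1.74), Gnal, the G protein subunit Golf (1.73), Tcf4, a transcription factor (1.72), Mrps7 of the mitochondrial ribosome (1.72), Hspa5 (1.70) and Cd164, a sialomucin (1.68). BYP and BYS did not overlap for any of the 12, as the rule required, and each gene was read by a single spot whose local shift was 0.50 to 0.85. After detrending the 12 differed by 0.91 to 1.43, and 11 of them passed while Fam120b did not (0.93, adjusted p = 0.053). The rule had already asked for a call with the local trend removed without regard to brightness, so this count was largely fixed by the choice of genes. When the slide was a random block, which does not remove a slide effect between BYP and BYS, 5 of the 12 passed. Set against BNS rats, which had no spasms, the same 12 genes differed in BYP by -0.16 to 0.36, while BYS lay 1.36 to 2.07 below BNS. BYP stood near the level of BNS for these genes and BYS stood apart. The genes were chosen for a wide gap between BYP and BYS, and these differences from BNS were not detrended. Slide and group cannot be told apart here, so whether PMX53 returned these genes towards BNS was not tested. Eif2ak4, the kinase that senses a lack of amino acids, was higher by 1.65 ± 0.25 in BYP (detrended 0.81, adjusted p = 0.031), at a local shift of 0.88.

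The largest decreases by the same rule were smaller. Selenoo, a mitochondrial protein AMPylase, had levels of -1.03, -0.85, -1.46 and -2.04 in BYP, against -0.28, -0.24, -0.15 and -0.42 in BYS, a difference of -1.07 ± 0.21 (limma adjusted p = 0.0046; detrended -0.65, adjusted p = 0.0592). Lrrc4b, a postsynaptic adhesion protein, had 0.62, 0.95, 0.87 and 0.47 in BYP, against 1.40, 1.99, 1.35 and 1.71 in BYS, a difference of -0.88 ± 0.20 (detrended -0.69, adjusted p = 0.0513). Rnd2, a small GTPase known from migrating neurons, had 2.18, 2.95, 2.92 and 3.02 in BYP, against 3.32, 4.01, 3.20 and 3.82 in BYS, a difference of -0.82 ± 0.22 (detrended -0.53, adjusted p = 0.0862). The groups did not overlap for any of these 3 genes, and the gap was narrowest for Rnd2.

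The other 9 decreases were Pced1b (-1.04), Edc3 of the mRNA decapping complex (-1.02), Tnnc2, a troponin C (-0.96), Prr5, a subunit of mTOR complex 2 (-0.96), Ldhd, D-lactate dehydrogenase (-0.90), Kndc1 (-0.90), Pi4kb, a phosphatidylinositol kinase of the Golgi (-0.89), Tle4, a Groucho-type corepressor (-0.84), and Sf3b4 of the spliceosome (-0.82). Local shift was -0.40 to 0.04 for the 12 decreases. After detrending, 4 of the 12 passed, namely Pced1b, Tnnc2, Kndc1 and Sf3b4, and 0 of 12 did when the slide was a random block. Sf3b4 and Tnnc2 lay where the local shift was 0.04 and -0.04, and their differences were nearly the same with and without the step (-0.82 and -0.89 after it).

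**Figure D3:**
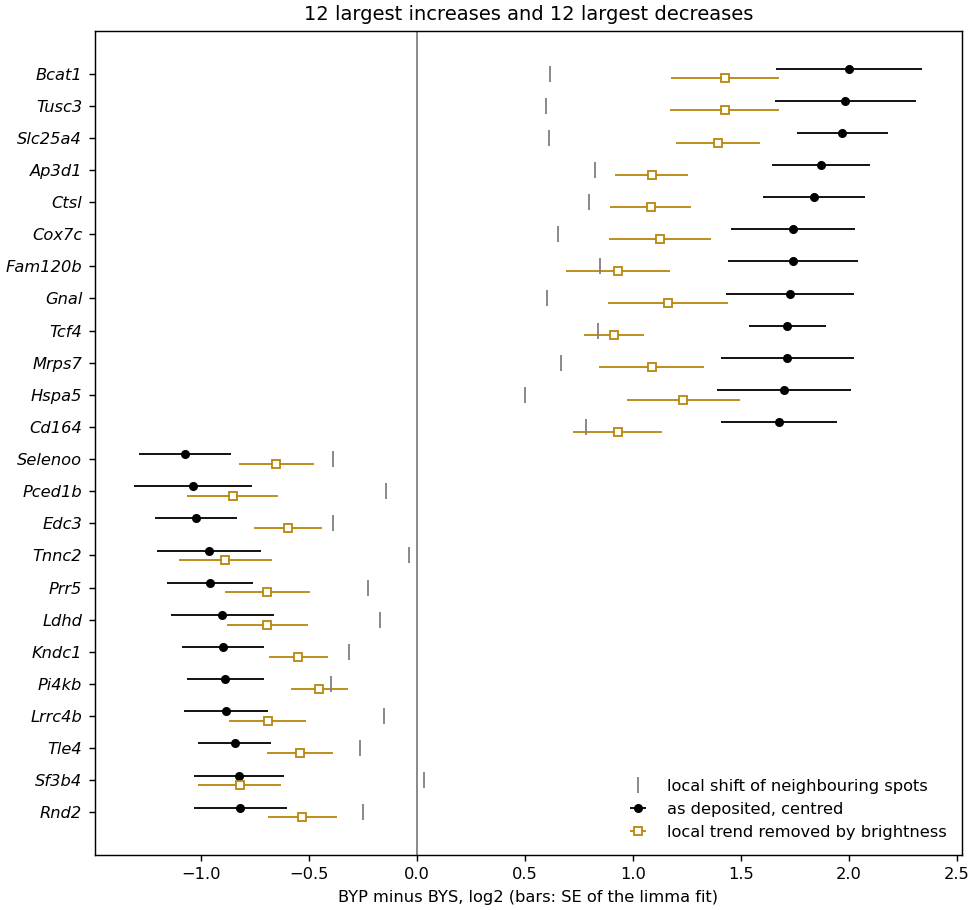
BYP minus BYS (log2, x axis) of the 12 largest increases and 12 largest decreases by the rule for named genes, as centred values (black circles) and after removal of the local trend by brightness (open squares), each with the SE of its limma fit; grey ticks mark the local shift. All 12 increases shrink towards 0 after the step and stay at 0.91 or above, and Sf3b4 and Tnnc2 hardly move.

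Chaperones of the endoplasmic reticulum were among the genes that rose. In the unfolded protein response, misfolded protein in this compartment releases Hspa5 (BiP) from its sensors, and the transcription factors Atf6 and Xbp1 then raise chaperone genes through a promoter element called the ERSE. The list of heat shock and unfolded protein response genes had 31 measured members, of which 6 rose and 1 fell (22.6% against the 9.70% of all genes), and its median was 0.12 beside -0.15 for all genes. After detrending 2 of the 31 passed, beside 1.95% of all genes. Its median local shift was -0.02.

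The promoter windows of 2 of the genes that rose, Hspa5 and Xbp1, are shown because both hold the ERSE; they run from 250 bases before to 50 after the start of the gene, 5′ to 3′ (RefSeq, build GRCr8), with the fixed letters of the element in capitals. Hspa5 lies at chr3:38452766-38453065 (plus strand) and Xbp1 at chr14:84604373-84604672 (plus strand).
Hspa5: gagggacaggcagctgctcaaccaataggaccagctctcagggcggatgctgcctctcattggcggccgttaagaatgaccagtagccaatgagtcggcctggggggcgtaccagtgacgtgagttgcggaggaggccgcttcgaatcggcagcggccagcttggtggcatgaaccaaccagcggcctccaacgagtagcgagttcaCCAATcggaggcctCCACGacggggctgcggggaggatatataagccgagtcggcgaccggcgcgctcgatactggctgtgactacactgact
Xbp1: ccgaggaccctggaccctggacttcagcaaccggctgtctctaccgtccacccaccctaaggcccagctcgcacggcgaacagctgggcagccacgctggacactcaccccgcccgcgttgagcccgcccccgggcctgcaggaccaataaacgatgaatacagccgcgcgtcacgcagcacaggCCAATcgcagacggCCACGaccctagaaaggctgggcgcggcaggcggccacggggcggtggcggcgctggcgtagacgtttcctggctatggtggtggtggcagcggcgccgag
The element was searched on both strands as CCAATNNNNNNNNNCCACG, the full spacing in which N is any base, and it ended 25 bases before the start in Hspa5 and 47 bases before it in Xbp1. It was found in 22 of 33469 promoter windows (0.0657%), and in 6 of the 26 windows of list members, those of Hspa5, Xbp1, Hsp90b1, Canx, Dnajc3 and Calr. The list was made of genes of this response, so its share of the element is no result of PMX53.

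A member with the element did not always differ. Hspa5, the BiP chaperone, had levels of 5.54, 5.51, 5.25 and 5.59 in BYP, against 4.20, 4.23, 3.25 and 3.41 in BYS, a difference of 1.70 ± 0.31 (limma adjusted p = 0.00244; detrended 1.24, adjusted p = 0.0254). Xbp1 had 2.52, 2.64, 2.41 and 2.43 in BYP, against 1.96, 2.18, 1.55 and 1.75 in BYS, a difference of 0.64 ± 0.14 (adjusted p = 0.011; detrended 0.21, adjusted p = 0.307). The groups did not overlap for either gene. Of the other 4 genes with the element, none passed the test. Hsp90b1 and Calr, chaperones of the same compartment, differed by -0.06 ± 0.20 and -0.24 ± 0.35, and Canx and Dnajc3 by 0.06 ± 0.23 and 0.20 ± 0.26. These 4 genes, named because of the element, had local shifts of -0.37 to -0.04, while Hspa5 and Xbp1 had 0.50 and 0.47. After detrending the 6 genes with the element differed by 0.14 to 1.24, and Hspa5 was the 1 that passed.

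Dnajb9 (ERdj4), a co-chaperone of Hspa5 without the element in its window, had levels of 0.90, 0.65, 0.75 and 0.49 in BYP, against -0.44, -0.93, -0.37 and -0.48 in BYS, a difference of 1.25 ± 0.23 (limma adjusted p = 0.00237). It and Hspa5 were the members of this list that still passed after detrending (Dnajb9 0.83, adjusted p = 0.0134). Sdf2l1, another co-chaperone, rose by 0.89 ± 0.20, and its detrended difference was 0.42 (adjusted p = 0.11). To complete the count, Herpud1 rose by 1.14 ± 0.32 (detrended 0.70) and Ddit3 (CHOP) by 0.56 ± 0.16 (detrended 0.29), and Dnajb5 fell by 0.72 ± 0.18 (detrended -0.27). Without detrending, both Hspa5 and Dnajb9 were close to BNS in BYP rats (0.34 ± 0.31 and -0.05 ± 0.23 relative to BNS). Relative to ACTH-treated BYA rats they differed by 0.52 and 0.73, and neither of these passed.

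**Figure D4:**
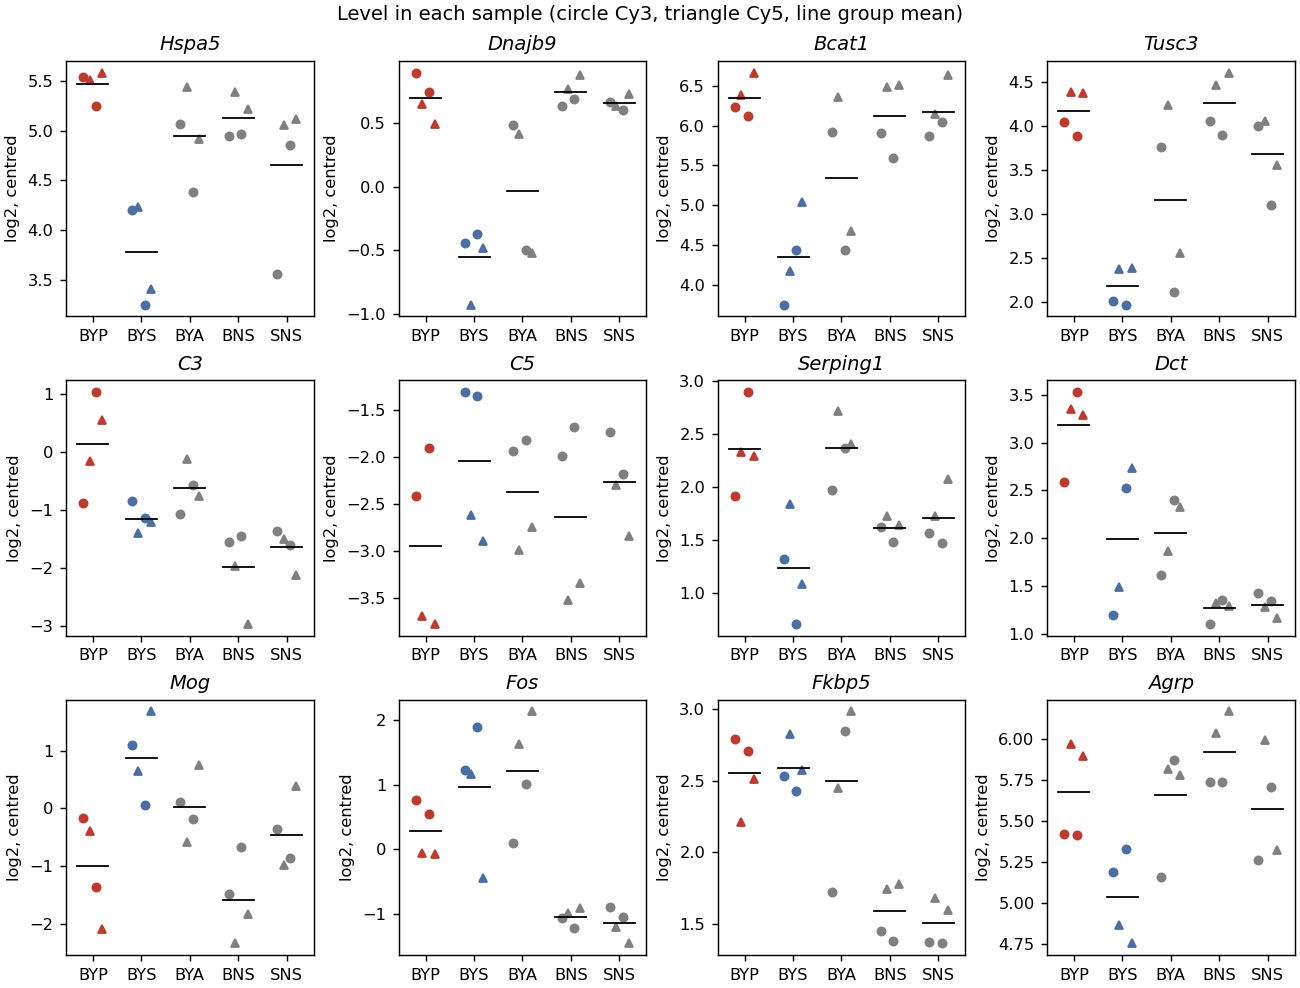
Centred log2 level (y axis) of 12 genes in every sample of the 5 groups, BYP (red) and BYS (blue) first, with circles for Cy3, triangles for Cy5 and a line at the group mean. Hspa5, Dnajb9, Bcat1 and Tusc3 are apart in BYP and BYS with BYP near BNS, Mog is lower in all 4 BYP samples than in any BYS sample, and for Fos and Fkbp5 BYP and BYS overlap and both lie above BNS.

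The target of the drug was read at a dim spot. C5ar1 had levels of -2.16, -3.13, -1.53 and -2.90 in BYP, against -1.84, -3.25, -1.38 and -2.51 in BYS, and the groups overlapped almost fully (difference -0.18 ± 0.32, limma adjusted p = 0.733). Its spot ranked at the 9.64 percentile of brightness, where a change in level would be hard to see. C5, the source of the ligand, had -2.42, -3.69, -1.90 and -3.78 in BYP, against -1.31, -2.61, -1.35 and -2.89 in BYS, a difference of -0.91 ± 0.27 (adjusted p = 0.044; detrended -0.87, adjusted p = 0.0657). Within each dye every BYP value of C5 was below every BYS value, although the pooled groups overlapped. C5 was read at 10 spots with values in all samples, and all 10 were lower in BYP, by 0.32 to 1.24, at a local shift of 0.00. C5 is also a dim gene, at the 13.4 percentile, and the median difference of the dimmest 10% was -0.60. Its call was lost when any 1 of 6 of the 8 samples was left out (limma adjusted p up to 0.118).

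Of 28 measured complement genes, 2 rose and 1 fell, 10.7% against the 9.70% of all genes, and the median was 0.05. Serping1, the inhibitor of C1 and of the kallikrein system, had levels of 1.92, 2.33, 2.90 and 2.29 in BYP, against 1.32, 1.84, 0.70 and 1.08 in BYS, a difference of 1.12 ± 0.27 (limma adjusted p = 0.0164; detrended 0.76, adjusted p = 0.0859). The lowest BYP sample was just above the highest BYS sample. C8g, a subunit of the membrane attack complex, rose by 0.87 ± 0.18 (detrended 0.43). C3, at which the activation routes meet, had -0.88, -0.16, 1.03 and 0.54 in BYP, against -0.85, -1.40, -1.15 and -1.22 in BYS, and 3 of the 4 BYP samples stood above all BYS samples (difference 1.28 ± 0.46, adjusted p = 0.0813, which did not pass; detrended 0.91, adjusted p = 0.223). C3 was 2.12 ± 0.46 higher in BYP than in BNS, against 0.83 ± 0.46 for BYS over BNS. Neither passed (limma adjusted p = 0.1999 and 0.212), and these differences from BNS were not detrended. C3ar1 and Cfb differed by -0.35 ± 0.41 and 0.57 ± 0.40, and C1qa and C1qb of microglia, chosen after their values were seen, by 0.22 ± 0.24 and 0.28 ± 0.28.

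Cytokine and chemokine genes varied widely within both groups. Of 29 measured members, 3 rose and 0 fell, 10.3% against the 9.70% of all genes. Ccl3, a chemokine of activated microglia, had 2.80, 0.79, 1.35 and -0.77 in BYP, against 2.05, 1.70, 1.91 and -0.14 in BYS (difference -0.34 ± 0.84). Ccl2 differed by -1.04 ± 1.24 and Icam1, an endothelial adhesion molecule, by 0.38 ± 0.54. Nfkbia, the inhibitor that NF-kappaB induces, differed by -0.22 ± 0.25, and Cd74, the chain that escorts MHC class II, by 0.00 ± 0.51. The SE of Ccl3 and Ccl2 was 0.84 or more, against a median SE of 0.22 over all genes, so a difference of 1 unit is close to 1 SE for these chemokines. The 3 that rose were Cx3cl1, the neuronal chemokine that signals to microglia (1.00 ± 0.17), Nfkb1 (0.86 ± 0.22) and Cxcl12 (0.56 ± 0.17). After detrending they differed by 0.18, 0.55 and 0.10, and none passed.

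Of 20 microglial markers, 3 rose and 0 fell (15.0% against 9.70% of all genes), with a list median of 0.12. After detrending 0 of the 20 passed, beside 1.95% of all genes. Called or not, 14 of the 20 were higher in BYP and 6 lower. Lyz2, lysozyme of myeloid cells, had 2.18, 2.42, 3.32 and 2.58 in BYP, against 0.85, 1.36, 0.68 and 1.38 in BYS, a difference of 1.56 ± 0.32 (limma adjusted p = 0.00569; detrended 1.06, adjusted p = 0.0635). Ctss, a lysosomal protease of antigen presentation, had 3.25, 3.74, 3.73 and 4.01 in BYP, against 2.87, 3.47, 1.62 and 2.22 in BYS, a difference of 1.14 ± 0.27 (detrended 0.74). Groups were apart for Lyz2 and overlapped for Ctss, where BYS replicate 2 exceeded BYP replicate 1. Lrrc25 rose by 0.56 ± 0.15 (adjusted p = 0.0221; detrended 0.28). Spi1, also on this list, went the other way (-0.67 ± 0.21, limma adjusted p = 0.0551, detrended -0.26) and did not pass. Aif1, which marks all microglia and was chosen after its value was seen, differed by 0.02 ± 0.23. The mean level of the 20 markers ran from 0.96 to 1.56 in BYP samples and from 0.76 to 1.39 in BYS samples, ranges that overlapped. In tissue such as this, more cells of a type and more RNA per cell cannot be told apart.

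Activity genes are switched on by neurons soon after strong firing. Of 27 measured, 1 rose and 0 fell (3.70% against 9.70%), and the list median was -0.23. Fos had 0.76, -0.06, 0.54 and -0.08 in BYP, against 1.23, 1.17, 1.90 and -0.44 in BYS, and BYS replicate 4 was the lowest of all 8 (difference -0.67 ± 0.62, limma adjusted p = 0.49). Both groups lay above BNS in Fos, BYP by 1.33 ± 0.62 and BYS by 2.00 ± 0.62. Of these, BYS passed (limma adjusted p = 0.0379) and BYP did not (limma adjusted p = 0.905). P-values were adjusted within each contrast, so this is no test of BYP against BYS. Arc, a synaptic activity gene read at 10 spots, had 0.98, 0.60, 0.48 and -0.18 in BYP, against 1.20, 1.27, 1.05 and 0.57 in BYS (difference -0.55 ± 0.27, adjusted p = 0.173), and all 10 spots were lower in BYP, by 0.10 to 0.95. Junb differed by 0.18 ± 0.43. The member that rose was Plk2, a kinase of synaptic scaling, with -0.13, 0.15, -0.33 and 0.13 in BYP, against -0.81, -0.54, -0.90 and -0.60 in BYS, a difference of 0.67 ± 0.17 (adjusted p = 0.0208). Plk2 also passed after detrending (0.58, adjusted p = 0.0324), at a local shift of 0.13.

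Of 27 glucocorticoid-responsive genes measured, limma called 0, against 9.70% of all genes. An unadjusted p under 0.05 was found for 5 of them in limma and 1 in the methods' t-test, beside 3962 and 1872 of all 13285 genes. Fkbp5, the cochaperone that the glucocorticoid receptor induces, had 2.79, 2.21, 2.71 and 2.51 in BYP, against 2.53, 2.83, 2.43 and 2.58 in BYS (difference -0.04 ± 0.26). Both groups stood about 1 unit above BNS (0.97 and 1.01, each with an SE of 0.26). This passed for BYS (limma adjusted p = 0.0174) and not for BYP (limma adjusted p = 0.364), with the adjustment made within each contrast. The gap in adjusted p between nearly equal differences is therefore no sign that Fkbp5 was raised in BYS alone. Zbtb16 differed by -0.85 ± 0.35 (limma adjusted p = 0.117) and Nr3c1, the receptor itself, by 0.62 ± 0.20 (adjusted p = 0.0574), with groups that did not overlap. Of 19 stress axis genes, 0 rose and 2 fell (10.5%), the receptors Crhr1 (-0.86 ± 0.24) and Oxtr (-0.86 ± 0.26), both at dim spots (8.39 and 7.77 percentile), and neither passed after detrending. Crh, the releasing hormone, had -0.88, -0.53, -1.77 and -3.28 in BYP, against -0.62, -1.06, -0.99 and -0.33 in BYS (difference -0.87 ± 0.65, adjusted p = 0.387).

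Among 41 arcuate peptides and receptors, 1 rose and 1 fell (4.88% against 9.70% of all genes). Agrp, which drives feeding, had 5.42, 5.97, 5.42 and 5.90 in BYP, against 5.19, 4.87, 5.33 and 4.76 in BYS, without overlap (difference 0.64 ± 0.28, limma adjusted p = 0.14). Its local shift was 0.685 and its detrended difference was -0.00458. Npy, made by the same neurons and read at 11 spots, differed by -0.04 ± 0.21 and Pomc, the precursor of the melanocortins, by 0.37 ± 0.24. Kiss1, of the reproductive axis, differed by -0.28 ± 0.29. The peptide precursor Vgf rose by 0.91 ± 0.23 (detrended 0.66, adjusted p = 0.0559), and the kisspeptin receptor gene Kiss1r fell by 0.54 ± 0.14 (detrended -0.07).

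Synapse genes were called in 6.38% to 11.8% of cases in the 5 lists for transmitters, against 9.70% of all genes. Of 110 dopaminergic synapse genes 8 rose and 3 fell, of 68 GABAergic genes 5 and 3, and of 94 glutamatergic genes 3 and 3. Of 86 cholinergic genes 3 rose and 6 fell, and of 74 serotonergic genes 3 and 2. These lists share members, and the 5 medians lay between -0.20 and -0.12. The balance of these calls turned with the scaling. After centring on the 75th percentile, 1 GABAergic gene was called higher and 6 lower, and 1 glutamatergic gene higher and 7 lower, and after quantile normalization the calls were 3 and 6 GABAergic and 4 and 6 glutamatergic. Of the serotonergic genes, 2 were then higher and 4 lower with the 75th percentile and 4 and 4 after quantile normalization. Gabrb1, a subunit of the GABA-A receptor, had 3.48, 3.51, 2.87 and 4.17 in BYP, against 1.87, 2.42, 1.39 and 1.90 in BYS, a difference of 1.61 ± 0.26 without overlap (limma adjusted p = 0.000989; detrended 1.17, adjusted p = 0.0134). Gad1, which makes GABA, rose by 1.04 ± 0.31 (detrended 0.62, adjusted p = 0.171), and Slc6a11, a GABA transporter of astrocytes, fell by 0.65 ± 0.18 (detrended -0.25). App, the amyloid precursor protein, which stands in the serotonergic list, rose by 1.36 ± 0.27 (detrended 0.92, adjusted p = 0.0355), and Ppp2r5a, a regulatory subunit of a phosphatase, by 1.10 ± 0.15 (detrended 0.56, adjusted p = 0.0394). Grm7, a presynaptic glutamate receptor, had -1.31, -1.88, -1.41 and -1.95 in BYP, against -0.76, -1.32, -1.01 and -1.50 in BYS. It fell by 0.49 ± 0.13 (adjusted p = 0.0263) at a local shift of 0.11, and its detrended difference was -0.56 (adjusted p = 0.0319). Of 34 genes of vesicle release (14.7% called), Stx1a rose by 1.05 ± 0.23 and 4 fell, among them Syn1 (-0.74 ± 0.19), Unc13b (-0.93 ± 0.25) and Syn3 (-1.05 ± 0.30), and none of these passed after detrending. Unc13b and Syn3 were read at dim spots (15.2 and 8.3 percentile), and their groups overlapped. The median difference of all genes was -0.60 in the dimmest 10% and -0.43 in the next 10%.

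Among genes of protein synthesis and of oxidative phosphorylation, most members did not pass the test, and more of those that did were higher in BYP. Of 71 ribosomal proteins, 13 rose and 0 fell (18.3% against 9.70%), and the median was 0.27, or 0.235 after detrending. The share of all genes that passed after that step was 1.95%. Rpl18 had 5.93, 6.34, 6.11 and 6.32 in BYP, against 4.26, 4.70, 4.77 and 5.05 in BYS, a difference of 1.48 ± 0.17. Rps6 rose by 0.70 ± 0.13. Both passed after detrending (0.65 and 0.49), as did 1 more ribosomal protein, Rps7 (0.60). Over all settings run on single genes, the smallest difference was 0.65 in Rpl18, 0.425 in Rps7 and 0.03 in Rps6. Of 74 respiratory chain genes, 8 rose and 1 fell (12.2%; median 0.185, or 0.0952 after detrending). Among the 8 were Cox7c, Ndufa2 and Ndufv1 of the respiratory complexes and Atp5po of ATP synthase (1.54 ± 0.19, detrended 0.77, adjusted p = 0.0236), and Cox7c and Atp5po passed after detrending. After quantile normalization 11 ribosomal proteins were called higher and 3 lower, and 6 respiratory chain genes higher and 4 lower. These are bright spots, at a median brightness percentile of 99.1 and 96.7, and all genes of the brightest 10% had a median of 0.06. Eif1a, a translation initiation factor, had 1.49, 1.13, 1.34 and 1.14 in BYP, against -0.15, -0.36, 0.03 and -0.05 in BYS, a difference of 1.41 ± 0.16, and it kept 1.09 after detrending (adjusted p = 0.000651). In all, 7 of 47 genes of translation initiation and amino acid sensing rose and 1 fell (17.02% against 9.70%), and 2 passed after detrending. Of 30 N-glycosylation genes, 4 rose (13.3%), Tusc3, Alg9 (1.00 ± 0.16), Alg11 (0.81 ± 0.22) and Alg3 (0.65 ± 0.19), at local shifts of 0.57 to 0.66, and Tusc3 alone passed after detrending. Of 14 reference genes often used for normalisation, limma called 0, against 9.70% of all genes. Their median was -0.03, or -0.14 after quantile normalization. An unadjusted p under 0.05 was found for 2 of them in limma and 1 in the methods' t-test, beside 3962 and 1872 of all 13285 genes.

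Markers of mature oligodendrocytes, the cells that make myelin, had the lowest median of the 34 lists, -0.93. However, limma called 0 of the 16, against 9.70% of all genes. An unadjusted p under 0.05 was found for 7 of them in limma and 4 in the methods' t-test, beside 3962 and 1872 of all 13285 genes. Mog, a protein of the outer myelin surface, had -0.16, -0.40, -1.36 and -2.09 in BYP, against 1.09, 0.64, 0.06 and 1.68 in BYS, without overlap (difference -1.87 ± 0.63, limma adjusted p = 0.0635; detrended -1.44). Mobp had 0.55, 1.10, -0.54 and -1.21 in BYP, against 1.83, 1.55, 0.79 and 2.37 in BYS (difference -1.66 ± 0.65, adjusted p = 0.102). Ermn differed by -1.72 ± 0.66, and the 10 of its spots with values in all samples were all lower in BYP, by 1.44 to 1.94. The mean level of the 16 markers was -1.62 to -0.45 in BYP samples, -0.24 to 0.37 in BYS samples and -1.57 to -0.48 in BNS samples, so BYP and BNS covered nearly the same range and BYS lay above both. It was -0.79 to -0.13 in BYA samples and -0.89 to -0.05 in SNS samples, and both of these ranges reached into that of BYS. Mbp, chosen after its value was seen, ran the other way (0.59 ± 0.34). Of the marker lists not yet described, each had 0 to 2 called members: 2 of 14 astrocyte, 1 of 10 oligodendrocyte precursor, 2 of 17 neuron, 2 of 17 endothelial, 1 of 10 thalamic and cortical, and 0 of 11 ependymal, 0 of 7 pituitary, 0 of 8 blood, 0 of 17 other hypothalamic, 0 of 17 choroid plexus and 0 of 5 leukocyte markers. In each of the lists with 0, limma gave 1 or 2 members an unadjusted p under 0.05 and the methods' t-test 0 or 1. These counts, too, stand beside the 3962 and 1872 of all genes.

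**Figure D5:**
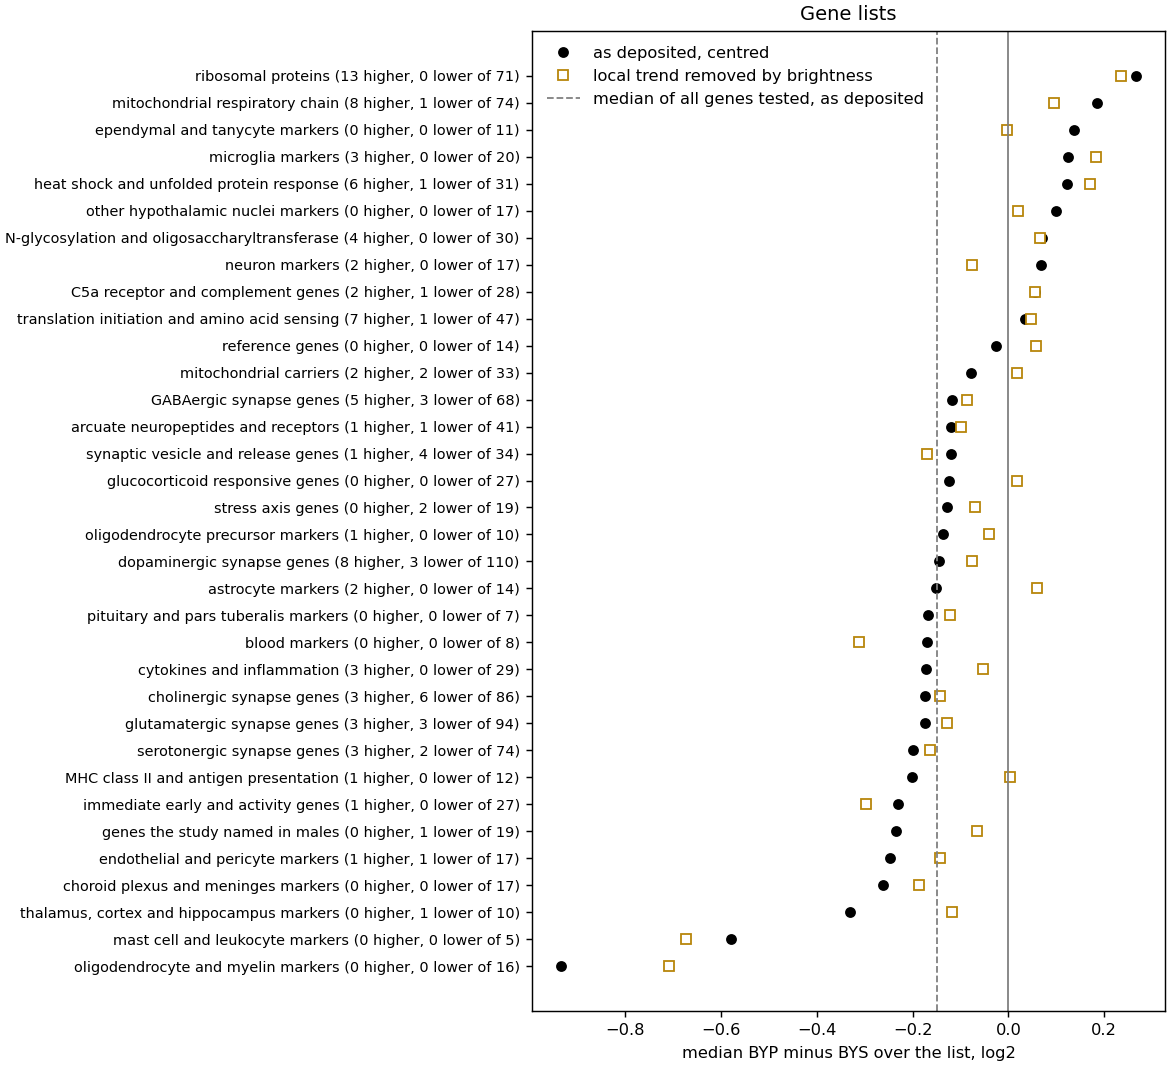
Median BYP minus BYS (log2, x axis) over the measured members of each of the 34 gene lists, as centred values (black circles) and after removal of the local trend by brightness (open squares), with the number of members called in limma beside each name; the dashed line is the median of all genes, -0.15. Ribosomal proteins lie highest at 0.27 and myelin markers lowest at -0.93.

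Of 12 genes of MHC class II presentation, 1 rose (8.33%), and of 33 mitochondrial carriers, 2 rose and 2 fell (12.1%). Of 19 genes that the study itself singled out in these samples, and which are therefore no independent evidence, 0 rose and 1 fell (5.26%). In all, 91 of 892 measured list genes were called (67 higher and 24 lower, 10.2%), near the 9.70% of all genes. Small medians depended on the scaling. Centring on the 75th percentile or no centring turned the medians of the complement, N-glycosylation, translation and neuron lists from just above 0 to just below it, and quantile normalization did so for the neuron list, while it turned the cytokine, MHC class II and choroid plexus medians above 0. The median of the ribosomal proteins was 0.10 to 0.27 and that of the myelin markers -1.01 to -0.75 over these scalings.

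A gene printed at 10 or more spots is averaged over several places on the array. There were 1184 such genes, of which 23 rose and 8 fell (2.62%), against 1076 of 9579 genes with 1 spot (11.2%), and their median difference was 0.02. The SD of the local shift was 0.10 over these genes and 0.29 over genes with 1 spot. After detrending 5 of the called genes still passed, named here after their values were seen, Ppm1l, Bex1, Ifi30, Smad1 and Tmem109. Ppm1l, a protein phosphatase, had 1.53, 1.73, 1.50 and 1.71 in BYP, against 0.81, 1.12, 0.81 and 0.88 in BYS, a difference of 0.71 ± 0.14 (limma adjusted p = 0.00403; detrended 0.57), which turned to -0.40 ± 0.15 (adjusted p = 0.0962) when its brightest spot alone was used. Smad1, which carries the signal of bone morphogenetic proteins, had 0.93, 0.87, 0.62 and 0.87 in BYP, against 0.27, 0.34, 0.26 and 0.12 in BYS, a difference of 0.57 ± 0.14 (detrended 0.50). Ifi30, a lysosomal reductase of antigen presentation, had 1.81, 2.14, 2.51 and 2.29 in BYP, against 0.89, 1.42, 1.08 and 1.68 in BYS, a difference of 0.92 ± 0.20 (detrended 0.74). The groups were apart for all 3. Ppm1l was not alone in depending on the processing. Over all settings run on single genes, the smallest difference was 0.07 in Smad1, 0.03 in Ifi30, 0.04 in Tmem109 and 0.155 in Bex1. The single spots of Ppm1l ranged from -0.80 to 2.07 and those of Ifi30 from -0.08 to 1.77, so even these means held spots of differing sign.

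Only 2 of the 712 increases lay where the local shift was not above 0, Dct and Ces1d. Dct, dopachrome tautomerase of the melanin pathway, had 2.59, 3.35, 3.53 and 3.29 in BYP, against 1.20, 1.49, 2.52 and 2.73 in BYS, with an overlap of BYP replicate 1 and BYS replicate 4. The difference was 1.20 ± 0.32 (limma adjusted p = 0.0243), and 1.70 after detrending (adjusted p = 0.00838). Without BYP replicate 2 or BYS replicate 2 it just missed the threshold (adjusted p up to 0.0536). In BYP rats Dct was 1.92 ± 0.32 above BNS, which passed (adjusted p = 0.0291), and 1.14 ± 0.32 above BYA, which did not (adjusted p = 0.933). Ces1d, a carboxylesterase chosen after its value was seen, had 2.67, 3.67, 3.22 and 2.97 in BYP, against 1.08, 1.41, 2.56 and 2.71 in BYS, a difference of 1.19 ± 0.37 (adjusted p = 0.0498; detrended 1.53, adjusted p = 0.0324). Both genes had a wide spread in BYS, with replicates 3 and 4, which share an array, more than 1 unit above replicates 1 and 2. Among the other genes that stood above BNS in BYP, Etv3 and Pth2 did not differ from BYS beyond their error (0.08 ± 0.25 and 0.07 ± 0.17).

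In the test of BYP minus BYA, which sets the effects of the 2 treatments against each other, 4 genes passed in limma (0.0301% of genes). All 4 were higher in BYP: Vps4b of endosomal sorting (1.03), Tubb2b, a neuronal tubulin (1.02), Dhrs7 (0.99) and Slc35a4 (0.88). BYA and BYP lay on separate slides, so slide and drug cannot be told apart, and BYP minus BYA was not detrended. Relative to BYS, Vps4b had 0.35, 0.42, 0.22 and 0.22 in BYP, against -0.50, -0.85, -0.72 and -0.62 in BYS (0.98 ± 0.16; detrended 0.65, adjusted p = 0.0292), and Slc35a4 was 0.84 ± 0.13 higher (detrended 0.48, adjusted p = 0.071), both without overlap. Tubb2b (0.42 ± 0.16) and Dhrs7 (0.22 ± 0.13) did not pass against BYS.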

How the data were processed

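Arcuate nucleus RNA of 20 rats was hybridised to Agilent 2-colour rat arrays. The deposited table holds 1 linear intensity per spot and sample, extracted by the authors with Agilent Feature Extraction 10.7.3.1 per the labels; how it was background-corrected, filtered and scaled is not given in the sources used here. Of 44254 spots, 12608 had no gene symbol, 27335 were named by accession, 3514 by symbol and 785 by synonym. Intensities were turned to log2, spots averaged per gene, and each sample's median gene set to 0. Limma 3.58.1 (R 4.3.3) was fitted to all 20 samples with 5 groups, dye, and array as a random block (correlation 0.436), with Benjamini-Hochberg adjustment over 13285 genes and two-sided moderated statistics. On simulated data the fit recovered 6% of increases of 0.5, 60% of increases of 1 and 96% of increases of 2 (50 genes each), with 5 false calls. The simulated data held no slide effect and no pattern by position, so they do not give the number of false calls in this comparison. The number of arrays limits the precision. The local trend was smoothed over an 85-column grid (Gaussian SD 12 rows, 6 columns).

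Named genes were the 12 largest changes in each direction among genes called with and without the local trend, not overlapping in 8 values and above the lowest 25% of levels, 31 fixed genes (30 measured), and up to 4 members per list; others are marked as chosen after their values were seen or named to complete a count. Members and lists were chosen with earlier results of these data known. The methods' t-test, other scalings, left-out samples and 34 gene lists were run as alternatives or descriptions. The effect of each is given at the end.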

Additional observations from a re-analysis of the deposited data

Results flagged for a closer look

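Among 366 sets of 4 values (183 genes in BYP and in BYS), 9 held a sample far from its group by Dixon's test at the 95% level, where chance gives about 1 in 20. In BYP, replicate 1 was lowest for Rnd2 (2.18, median of the others 2.95) and Lhb (0.832, others 1.73) and highest for Nfkb1 (0.665, others 0.289). BYP replicate 4 was highest for Alg3 (2.12, others 1.67) and lowest for Ermn (-3.87, others -2.0), Cga (-3.61, others -1.74), Sim1 (-3.63, others -1.64) and Lum (-2.40, others -1.62). In BYS, replicate 4 was lowest for Ccl3 (-0.142, others 1.91). Ermn, Cga, Sim1 and Lum were dim in that Cy5 sample.

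BYP minus BYA, the difference between the effects of PMX53 and ACTH against BYS, passed in limma for 4 genes. It was 0.987 in Dhrs7, 0.884 in Slc35a4, 1.02 in Tubb2b and 1.03 in Vps4b, all higher in BYP. BYA and BYP lay on separate slides, so slide and drug cannot be told apart.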

How the results depend on the processing

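The 1289 genes called, and in brackets the 91 list genes called, became 3945 (243) with no array block, 2534 (152) with the compared groups alone, 2498 (170) with no dye term, 3229 (195) with SNS replicate 2 taken as Cy3, 1944 genes with quantile normalization and 2765 (171) with Cy3 samples alone. They fell to 139 (17) with the slide as a random block, 423 (41) with the local trend removed, 52 (5) by the methods' t-test after Benjamini-Hochberg, 218 (22) without the array of BYP replicates 1 and 2, 251 (24) without that of BYP replicates 3 and 4, and 700 genes without that of BYS replicates 1 and 2. With Cy5 samples alone limma called 0 (0), with 2837 genes at an unadjusted p under 0.05. Chosen after seeing the data, removal of the local trend by brightness gave 259 (17), narrow smoothing 483 (41), and spots with a small local trend alone 10 (3) of 3137 genes; by brightness, the slide as a random block gave 0 (0), with 806 at an unadjusted p under 0.05, and the fit without BYS replicates 1 and 2 gave 128 (14), or 945 genes (52) without replicates 3 and 4. Without 1 replicate the counts were 659 to 1330 (50 to 93), lowest without BYP replicate 1 (659) or 4 (679). The replicate block gave 1233 genes; same-numbered BYP and BYS samples correlated at 0.039 (replicates 1 and 3) and 0.012 (replicates 2 and 4), so the numbers were not taken as pairs. The median of the dimmest 10% was -0.60, -0.68 to -0.51 without 1 replicate, and -0.18 after quantile normalization. The cause of these changes was not tested.

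Of 74 named calls, 48 held without any 1 replicate, and 26, among them C5, Dct, Plk2 and Gad1, were lost without 1 replicate or more; 16 held with the slide as a random block and 35 with the local trend removed by brightness. Over all settings run on single genes, 1 named call changed sign, that of Ppm1l, to -0.404 at its brightest spot. Dim spots limit C5ar1, C5, Crhr1, Oxtr, Unc13b and Syn3, and slide and treatment cannot be told apart.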
